A study of Mus musculus with 12 samples.

Results

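FAN1 is a nuclease that helps cells repair DNA crosslinks, lesions in which the strands of the double helix are tied to each other. Loss of FAN1 in people causes karyomegalic interstitial nephritis, a chronic kidney disease with enlarged tubule nuclei, and cisplatin is a drug that makes such crosslinks. The proximal tubule, where the deletion was made, reabsorbs most of the filtrate and lives mainly on the oxidation of fatty acids in its mitochondria. The question here was which genes already differed between FAN1KO and wild-type kidneys in mice that received saline and no cisplatin.

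The comparison rests on 6 of the 12 kidney libraries of the series, 3 from FAN1KO mice and 3 from wild-type mice, all given weekly saline injections over 5 weeks. The labels give both groups a mixed strain background and an age of 8 to 12 weeks, while the study's methods describe backcrossing to 129Sv-Elite and the use of male and female mice. FAN1KO mice carried γGT1-Cre and Fan1-/-, that is, a Cre recombinase under the Ggt1 promoter, which acts in proximal tubule cells. The wild-type label names no Cre, so the Cre and the Fan1 deletion cannot be told apart, and the ancestry of each mouse is not given. Each library held the RNA of a whole kidney, so in every result below fewer cells of a type and less RNA per cell cannot be told apart. The 6 other libraries, 3 of each genotype after weekly cisplatin at 2 mg/kg for 5 weeks, helped to estimate the spread and supply the comparison in the last paragraphs.

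The authors deposited TPM, transcript levels corrected for gene length and library size and scaled to a common total, for 27179 genes. Tests covered the 14972 genes that reached a TPM of 1 or more in 3 or more of the 12 libraries. All tests across genes were two-sided limma tests on log2(TPM + 1), a scale that understates the change of low genes, and a gene was called when its p after Benjamini-Hochberg adjustment over all 14972 genes was under 0.05. A difference is FAN1KO minus wild-type on that log2 scale unless stated otherwise, with its standard error (SE), and n is 3 mice in each group throughout.

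Some libraries stood apart before any gene was considered. Reads recovered from the TPM steps were 41911412 to 82935965 in wild-type and 42418351 to 50059883 in FAN1KO libraries. Wild-type replicate 3 and FAN1KO replicate 1 alone among the 6 held high Y-linked RNA (mean log2 level of 4 Y-linked genes 3.46 and 3.72, at most 0.039 in the others). Adrenal cortex markers summed to 203 TPM in wild-type replicate 2 and to 1.30 to 3.61 TPM in the other 5 libraries. Fat cell markers summed to 4.10, 59.3 and 5.66 TPM in wild-type and 0.444, 0.463 and 0.143 TPM in FAN1KO libraries, so that they separated the genotypes also without wild-type replicate 2 (exact permutation p = 0.1, the smallest possible). Of the 5 fat cell markers 3 passed the filter, all lower in every FAN1KO mouse and none called, and their part in the results below was not tested. Globin and erythroid markers summed to 1356 to 6941 TPM in wild-type and 619 to 1749 TPM in FAN1KO kidneys, ranges that overlap. Proximal tubule markers, all 14 of them detected, summed to 7219 ± 273 TPM in wild-type libraries and to 7792 ± 951 TPM in FAN1KO ones (SD, exact permutation p = 0.4, where 0.1 is the smallest p that 3 against 3 mice allow). The tissue label was thus matched by its defining markers in all 6 libraries.

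Fan1 itself (chr7:64345385-64374128 in GRCm38) did not separate the genotypes. Its TPM was 3.80, 3.35 and 1.98 in the wild-type libraries and 1.17, 1.54 and 2.28 in the FAN1KO libraries. The mean was lower in FAN1KO, at 1.66 ± 0.563 against 3.04 ± 0.945 TPM (SD), but the groups overlapped. The difference of −0.59 (SE 0.27) had an adjusted p of 0.593 in limma and an exact permutation p of 0.2. A whole-kidney value holds RNA from cells in which this Cre does not act, and the TPM of a gene does not show which exons the reads came from. The libraries are therefore named by their labels.

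In all, 115 genes were called, 0.768% of those tested, of which 64 were lower (0.427%) and 51 higher (0.341%) in FAN1KO. At an unadjusted p under 0.05 there were 1255 genes (8.38%), 815 lower (5.44%) and 440 higher (2.94%). The 3 FAN1KO values lay wholly outside the 3 wild-type values for 1865 genes (12.5%, with 7.83% below and 4.62% above), and for all 115 called genes. The fitted change was at least 2-fold for 37 of the lower and 37 of the higher genes, and the median difference over all tested genes was −0.037. The count rests on the spread that all 12 libraries lend to the fit, since the 6 saline libraries alone gave 16 lower and 11 higher genes. It also fell when a library was left out, to 19 lower and 26 higher genes without wild-type replicate 1 and to 21 and 22 without wild-type replicate 2, and to between 31 and 41 lower and between 31 and 38 higher genes without any one of the others. With the Y-linked level as a covariate it rose to 248 lower and 173 higher genes, which included all 115. All 115 kept their direction under the 15 alternative analyses, and 19 of them, 10 lower and 9 higher, kept their call under all 15: the named genes among these are Sqle, Cox18, Hddc3, AA465934, 1810037I17Rik, Rps15a-ps8, Elobl, Atp10d and the gene with NCBI number 100504598 (lower) and Mccc1, Sugct, Mcm6, Rplp0 and Cfap126 (higher). Of the 115, 38 kept their call whichever saline library was left out.

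**Figure D1:**
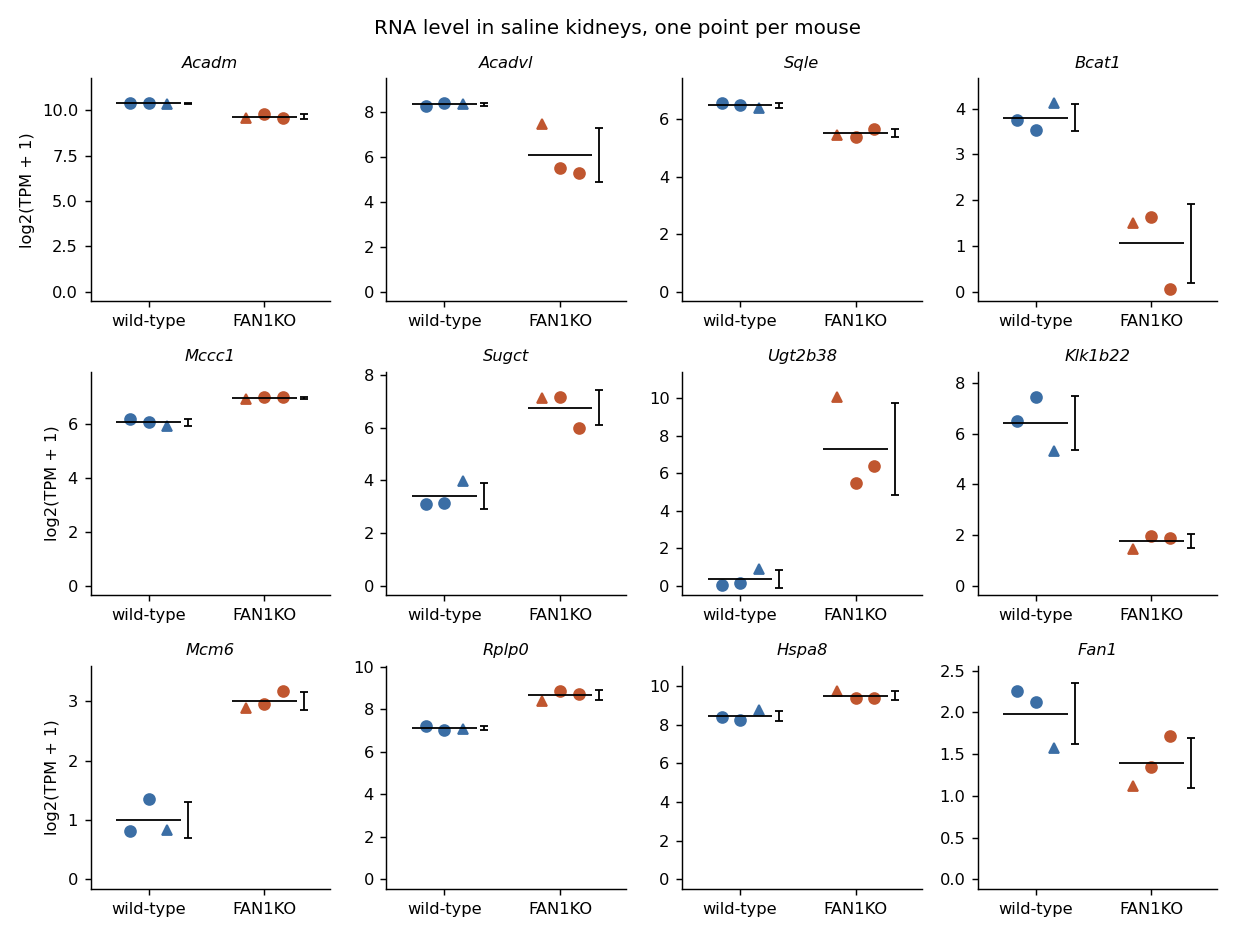
Levels of 12 genes as log2(TPM + 1) in each of the 3 wild-type and 3 FAN1KO saline kidneys, with triangles for the 2 libraries high in Y-linked RNA, circles for the other 4, a line at the group mean and a bar for the SD. Acadm, Acadvl, Sqle, Bcat1 and Klk1b22 sit lower and Mccc1, Sugct, Ugt2b38, Mcm6, Rplp0 and Hspa8 higher in every FAN1KO kidney, while Fan1 overlaps between the groups and in Acadvl, which was not called, FAN1KO replicate 1 lies far above the other 2.

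Medium-chain fatty acid oxidation held the most abundant enzyme gene that fell. Acadm (chr3:153922353-153944643), which encodes the medium-chain acyl-CoA dehydrogenase that opens the oxidation of fatty acids of middle length, had TPM of 1350.0, 1352 and 1287 in wild-type and 759, 894 and 748 in FAN1KO kidneys. The groups did not overlap and the drop was of similar size in each FAN1KO mouse. Acadm fell by 0.74 (SE 0.13, adjusted p = 0.025), a 1.67-fold change. The call was lost, at adjusted p up to 0.116, when any saline library other than FAN1KO replicate 2 was left out, and at 0.144 under median-ratio scaling, with the same direction each time.

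Acadvl (chr11:70010183-70015428), the very-long-chain enzyme that precedes Acadm in the pathway, showed a larger but uneven difference. Its TPM was 304, 338 and 327 in wild-type and 179, 44.3 and 38.5 in FAN1KO kidneys. All 3 FAN1KO mice were below all wild-type mice, yet FAN1KO replicate 1 was several times above the other 2. The difference of −2.24 (SE 0.54) had an adjusted p of 0.121 and was not called, although without FAN1KO replicate 1 it was (adjusted p = 0.0112). The promoters of these acyl-CoA dehydrogenase genes are shown because both genes are known targets of the nuclear receptor PPARα. They are the 250 bases before the RefSeq gene start in GRCm38.p6, both on the minus strand, Acadm at chr3:153944644-153944893 and Acadvl at chr11:70015429-70015678, with capitals for AGGTCA, the short motif that such receptors bind, or its reverse complement.
Acadm: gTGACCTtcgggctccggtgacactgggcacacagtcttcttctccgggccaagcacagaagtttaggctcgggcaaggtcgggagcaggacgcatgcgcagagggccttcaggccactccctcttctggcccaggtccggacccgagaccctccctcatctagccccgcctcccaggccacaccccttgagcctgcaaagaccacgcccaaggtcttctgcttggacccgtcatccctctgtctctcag
Acadvl: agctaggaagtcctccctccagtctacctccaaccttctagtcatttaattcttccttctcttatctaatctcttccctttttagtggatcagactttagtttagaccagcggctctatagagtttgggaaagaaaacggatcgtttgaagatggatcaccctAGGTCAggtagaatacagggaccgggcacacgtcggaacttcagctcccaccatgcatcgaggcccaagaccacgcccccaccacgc
Each promoter held 1 match, 249 bases before the start in Acadm and 87 bases before it in Acadvl. A match on either strand stood in 14.0% of the 32851 promoters searched, so it describes these windows and is no evidence of binding.

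Of the 24 tested genes of the carnitine shuttle, the acyl-CoA dehydrogenases with their electron acceptors and the later steps, Acadm was the only one called. The median over the 24 was −0.07 (−0.01 under median-ratio scaling), against −0.037 over all genes, with 16 below 0. In 5 of the 24 every FAN1KO value was below every wild-type value, and in none above, where 7.83% and 4.62% of all tested genes were. Cpt1a and Cpt2, which load and unload carnitine at the mitochondrial membranes, differed by −0.01 (SE 0.12) and −0.02 (SE 0.13), each with an adjusted p of 1. Echs1, the enoyl-CoA hydratase, had TPM of 277 to 330.3 in FAN1KO and 336 to 373 in wild-type kidneys, and its difference of −0.24 (SE 0.10) was not called (adjusted p = 0.56). Ppara, the receptor that controls many of these genes, differed by −0.05 (SE 0.22, adjusted p = 1). The signs of Cpt1a, Cpt2 and Ppara turned under median-ratio scaling, where all 3 stayed within 0.05 of 0.

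Respiratory chain genes lay around 0 under saline. None of the 74 tested nuclear genes of complexes I to IV, cytochrome c and ATP synthase was called, 36 were above 0, the median was −0.01, and 4 had an unadjusted p under 0.05. Ndufa1 of complex I averaged 426 ± 60.3 TPM in the wild-type group and 422 ± 35.2 TPM in the FAN1KO group (SD). Sdha of complex II averaged 483 ± 45.9 and 498 ± 54.6 TPM, and Cox4i1 of complex IV 2856 ± 470.4 and 3091 ± 454 TPM. Each of these pairs differed by less than the spread between mice (adjusted p = 1 for all 3). Mitochondrially encoded RNA took 21.1 ± 1.92% of TPM in wild-type libraries and 21.3 ± 1.09% in FAN1KO libraries (SD, exact permutation p = 0.8). Outside that list, Cox18 (chr5:90214724-90224595), which inserts a core subunit of complex IV into the membrane, fell by 1.36 (SE 0.15, adjusted p = 0.00218), from 26.6, 25.6 and 31.0 TPM to 11.6, 9.78 and 9.26 TPM. Coq4, needed to make coenzyme Q, fell by 0.60 (SE 0.09, adjusted p = 0.0143, up to 0.0727 with 1 library left out). These genes were chosen after their values were seen. The same holds for all genes named from here on except called list members, the most abundant members of lists without a call, the 12 largest changes in each direction, the genes near Fan1, and Fan1, Ndufa1, Sdha, Cox4i1, Acadm, Acadvl, Cpt2, Echs1, Ppara, Cpt1a and Havcr1.

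Sterol synthesis held 1 called gene. Sqle (chr15:59315092-59331193), squalene epoxidase, which commits squalene to sterols, had TPM of 93.1, 89.1 and 81.8 in wild-type and 42.9, 41.0 and 49.9 in FAN1KO kidneys. No FAN1KO mouse came near the lowest wild-type mouse, and Sqle fell by 0.97 (SE 0.12, adjusted p = 0.0048, at most 0.036 with any library left out). Hmgcs1, a synthase of an early step of the pathway, differed by 0.77 (SE 0.17, adjusted p = 0.0793). Over the 19 tested genes of fatty acid and sterol synthesis and lipid droplets the median was −0.13, with Sqle the only one called. Plin2, a coat protein of lipid droplets, had TPM of 26.2, 32.9 and 14.6 in wild-type and 82.4, 73.8 and 50.3 in FAN1KO kidneys, without overlap, and was not called (difference 1.49, SE 0.34, adjusted p = 0.0943). Mfsd2a, a carrier of lysophospholipids, fell by 1.75 (SE 0.29, adjusted p = 0.0232, up to 0.117 with 1 library left out). Acp6, a mitochondrial lysophosphatidic acid phosphatase, fell by 1.10 (SE 0.12, adjusted p = 0.00167). Apoa2, an apolipoprotein, rose by 2.02 (SE 0.29, adjusted p = 0.0108, up to 0.065 with 1 library left out), from 1.74, 3.82 and 1.46 TPM to 12.1, 13.3 and 10.5 TPM.

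Amino acid enzymes moved in both directions. Bcat1 (chr6:144993835-145076157), the cytosolic enzyme that removes the amino group of leucine, isoleucine and valine, had TPM of 12.4, 10.6 and 16.4 in wild-type and 1.82, 2.09 and 0.0494 in FAN1KO kidneys. The groups stood far apart, and Bcat1 fell by 2.74 (SE 0.45, adjusted p = 0.0215). That call was lost without any one wild-type library (adjusted p up to 0.0902) and also with a pseudocount of 0.1. It was lost as well with a replicate block (adjusted p = 0.0656), with the 6 saline libraries alone (0.121) and by voom (0.103).

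Mccc1 (chr3:35956292-36000694), a subunit of the carboxylase that acts later in leucine breakdown, went the other way. Its TPM was 72.6, 66.1 and 60.0 in wild-type and 122, 126 and 128 in FAN1KO kidneys. The 3 FAN1KO values were close together and Mccc1 rose by 0.92 (SE 0.11, adjusted p = 0.00308). It was the only called gene among 17 tested genes of branched-chain amino acid breakdown, whose median was −0.10.

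Sugct (chr13:16857472-17694795), which attaches coenzyme A to glutarate from lysine breakdown, was among the 12 largest rises. Its TPM was 7.51, 7.82 and 14.8 in wild-type and 138, 144 and 63.3 in FAN1KO kidneys. The 2 libraries high in Y-linked RNA, wild-type replicate 3 and FAN1KO replicate 1, held 14.8 and 138 TPM. Sugct rose by 3.36 (SE 0.38, adjusted p = 0.00296). Sardh, which breaks down sarcosine in mitochondria, rose by 0.97 (SE 0.15, adjusted p = 0.0154, up to 0.0879 with 1 library left out), from 114 to 141 TPM to 228 to 256 TPM. Agmat, annotated as an agmatinase, fell by 1.30 (SE 0.17, adjusted p = 0.00654). Pm20d1, an enzyme that joins fatty acids to amino acids, fell by 0.80 (SE 0.14, adjusted p = 0.0245, up to 0.117 with 1 library left out). Nmrk1, a kinase in a salvage route to NAD, fell by 1.16 (SE 0.22, adjusted p = 0.044, up to 0.194 with 1 library left out).

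The largest rise was in a single gene of detoxification, and it was uneven. Ugt2b38 (chr5:87409939-87424203), a glucuronosyltransferase, had TPM of 0.0165, 0.0894 and 0.854 in wild-type and 1076, 43.1 and 81.1 in FAN1KO kidneys. The groups did not overlap, but FAN1KO replicate 1, which is high in Y-linked RNA, was over 10 times above the other FAN1KO libraries. The difference was 6.95 (SE 0.95, adjusted p = 0.00786 in limma on TPM, 0.386 by voom on recovered reads). Of its 100-base windows, 24.2% also occur in other genes, so reads may be shared with relatives. Ugt2b5 on the same chromosome (2.34, SE 0.79, adjusted p = 0.356) and Ugt1a7c (2.60, SE 0.58, adjusted p = 0.0917) were higher in every FAN1KO mouse without being called. Ugt1a10 and Ugt1a9 were lower in every FAN1KO mouse, also without a call, with means of 21.7 against 29.3 TPM (−0.46, SE 0.19, adjusted p = 0.521) and 2.92 against 5.98 TPM (−0.88, SE 0.43, adjusted p = 0.662). The gene models of Ugt1a7c, Ugt1a9 and Ugt1a10 overlap and end at the same base (chr1:88220002). Reads may therefore be shared between them, and their opposite signs are uncertain. Of the 22 tested cytochrome P450 and glucuronosyltransferase genes, Ugt2b38 was the only one called, and their median was 0.01.

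Gpx6 (chr13:21295465-21319625), a glutathione peroxidase known from olfactory tissue, had TPM of 0.842, 2.95 and 0.569 in wild-type and 20.7, 68.5 and 17.4 in FAN1KO kidneys. In both groups replicate 2 was the highest. Gpx6 rose by 3.75 (SE 0.55, adjusted p = 0.0122), and the call was lost without wild-type replicate 1 or 3 (adjusted p up to 0.069). It was also lost with the 6 saline libraries alone (adjusted p = 0.119) and by voom on recovered reads. Among reductases, Cyb5r3, which passes electrons to cytochrome b5, and Akr1c13 of the aldo-keto reductases, fell by 0.96 (SE 0.16, adjusted p = 0.0231) and 1.05 (SE 0.16, adjusted p = 0.0122). With 1 library left out these adjusted p reached 0.116 and 0.0577. The 27 tested NRF2 targets and antioxidant genes held no called member and had a median of 0.09.

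Among the genes of the replication helicase, Mcm6 alone was called. Mcm6 (chr1:128331575-128359705) encodes 1 of the 6 subunits of the helicase that unwinds DNA at replication origins. Its TPM was 0.754, 1.56 and 0.784 in wild-type and 6.40, 6.77 and 8.05 in FAN1KO kidneys. The separation was wide and even, and Mcm6 rose by 2.01 (SE 0.25, adjusted p = 0.00501). The other 5 subunits, Mcm2 to Mcm5 and Mcm7, differed by −0.24 to 0.27, and none was called (lowest adjusted p = 0.769). The Mcm6 promoter is printed because E2F-type sites are the known control of this helicase family. It is the 250 bases before the start on the minus strand, chr1:128359706-128359955 in GRCm38.p6, with capitals for TTTGGCGC.
Mcm6: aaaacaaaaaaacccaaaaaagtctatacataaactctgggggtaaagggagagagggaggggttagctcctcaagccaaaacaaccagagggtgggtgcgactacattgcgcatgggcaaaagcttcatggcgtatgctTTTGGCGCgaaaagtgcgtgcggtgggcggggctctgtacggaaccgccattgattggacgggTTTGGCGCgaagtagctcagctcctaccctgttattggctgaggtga
It held 2 matches, 110 and 47 bases before the start, and 0.417% of the 32851 promoters held at least 1 on either strand.

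Other regulators of division and cell death were called singly. Pttg1, securin, which holds sister chromatids together until anaphase, had TPM of 4.53, 3.60 and 2.46 in wild-type and 17.6, 24.0 and 45.8 in FAN1KO kidneys, and rose by 2.65 (SE 0.51, adjusted p = 0.0468). Bik, a BH3-only protein that promotes apoptosis, rose by 2.11 (SE 0.40, adjusted p = 0.0427), from 2.18 to 4.08 TPM to 12.2 to 24.0 TPM. Both calls were lost whichever saline library was left out (adjusted p up to 0.173 and 0.14). Cdkn2c, an inhibitor of the kinases that start the cell cycle, fell by 0.86 (SE 0.16, adjusted p = 0.044, up to 0.173 with 1 library left out). Of the 22 tested replication licensing and mitosis genes, Mcm6 was the only one called, and their median was 0.08.

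Crosslink repair and damage signalling showed no called gene. None of the 22 tested Fanconi and crosslink repair genes, of the 16 checkpoint genes or of the 21 genes of p53 and its targets was called by limma, with medians of −0.01, −0.04 and −0.01 and 0, 1 and 1 genes at an unadjusted p under 0.05. With the Y-linked covariate 1 repair gene and 1 checkpoint gene were called, and with median-ratio scaling 1 checkpoint gene. Fance, a subunit of the Fanconi core complex and the most abundant of the repair list, differed by −0.14 (SE 0.16, adjusted p = 1). Bax, a p53 target that permeabilises mitochondria, differed by 0.13 (SE 0.19, adjusted p = 1). Outside these lists Poli, a polymerase that copies past damaged bases, fell by 0.78 (SE 0.13, adjusted p = 0.0241), from 8.86 to 10.0 TPM to 4.64 to 5.67 TPM. Gtf2h2, a subunit of the TFIIH complex of transcription and excision repair, rose by 0.91 (SE 0.18, adjusted p = 0.049). The Poli and Gtf2h2 calls were lost whichever saline library was left out (adjusted p up to 0.119 and 0.177).

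Histone genes formed the largest group by family. Of 45 tested core and linker histone genes of the clusters and their replacement relatives, 6 were called lower (H2bc11, H2bc12, H4bc24, H2ac12, H4c1 and H2ac20) and 2 higher (H2bc7 and H2bc4), against 0.768% of all tested genes called. Of the 45, 31 lay below 0, as did 57.9% of all tested genes, and their median was −0.28. H2bc12 (chr13:22035821-22036320) had TPM of 67.4, 69.0 and 81.7 in wild-type and 8.09, 9.12 and 34.3 in FAN1KO kidneys, a fall of 2.31 (SE 0.40, adjusted p = 0.0279). H2bc11 had 30.6, 14.8 and 44.6 against 3.15, 2.09 and 8.29 TPM, a fall of 2.53 (SE 0.48, adjusted p = 0.044). In H2bc12 and in H4bc24 (fall 2.30, SE 0.45, adjusted p = 0.0496) FAN1KO replicate 3 was the highest of the FAN1KO libraries.

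H2bc4 (chr13:23684199-23692480) was the most abundant called histone gene and rose by 0.84 (SE 0.14, adjusted p = 0.021), from 317, 332 and 324 TPM to 681, 609 and 469 TPM. H2bc7 rose by 2.56 (SE 0.30, adjusted p = 0.00328), from 0.738, 0.777 and 1.41 TPM to 15.8, 10.3 and 7.03 TPM. The called genes lay among near-identical copies, and 25.4 to 87.9% of the 100-base windows of the 7 called on chromosome 13 also occur in other genes. Reads may thus have been split between copies, and the value of any single histone gene is uncertain. Of the 8 histone calls, voom on recovered reads kept 4 and the fit of the 6 saline libraries alone kept none, and H2bc7 was the only one kept whichever saline library was left out (adjusted p up to 0.194 for the others).

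**Figure D2:**
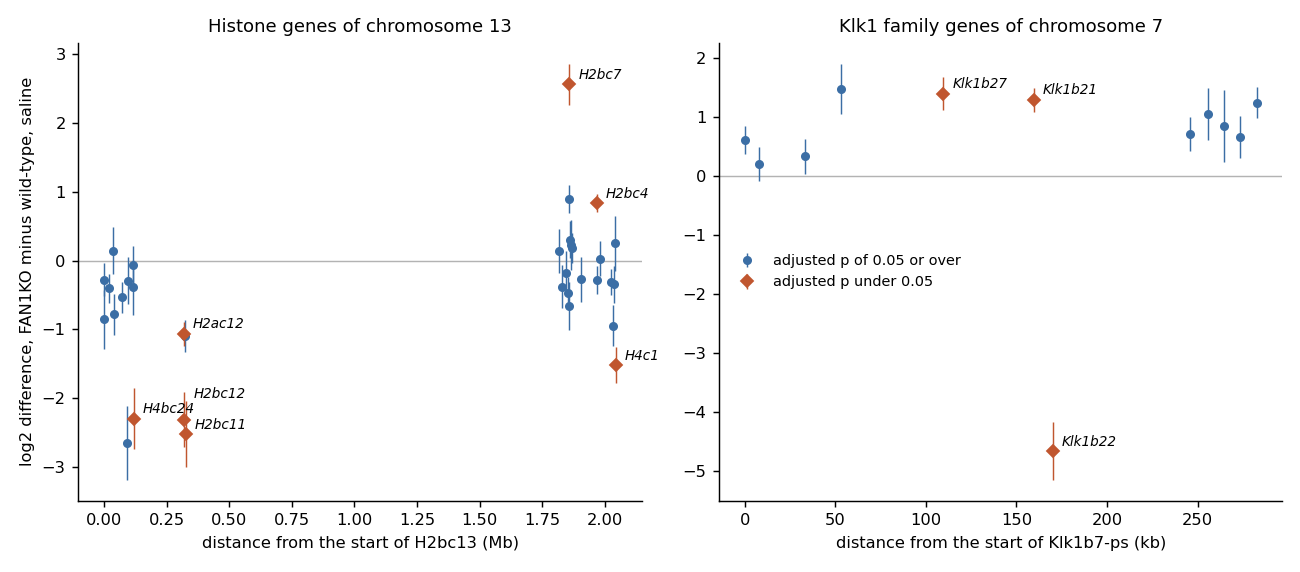
Differences between FAN1KO and wild-type saline kidneys on the log2(TPM + 1) scale with SE bars, for histone genes of chromosome 13 by distance in Mb from the start of H2bc13 (left) and for the Klk1 family on chromosome 7 by distance in kb from the start of Klk1b7-ps (right), with diamonds for an adjusted p under 0.05. Lower and higher genes stand side by side in both, and Klk1b22 at −4.67 is the only member of its family below 0.

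Tissue kallikreins, serine proteases of the distal nephron that release kinins, held called genes of both directions within their family. Klk1b22 (chr7:44112673-44116922) had TPM of 89.8, 175 and 38.6 in wild-type and 1.71, 2.88 and 2.65 in FAN1KO kidneys. Even the lowest wild-type kidney was more than 10 times above the highest FAN1KO kidney, and Klk1b22 fell by 4.67 (SE 0.49, adjusted p = 0.00167, at most 0.0128 with any library left out, and 0.0911 by voom). The other 11 tested genes of the family were all above 0. Klk1b21 rose by 1.29 (SE 0.20, adjusted p = 0.0179, up to 0.097 with 1 library left out), from 28.3, 19.8 and 18.4 TPM to 43.9, 52.7 and 71.2 TPM. Klk1b27 rose by 1.40 (SE 0.27, adjusted p = 0.0496, up to 0.195 with 1 library left out), from 7.21, 9.00 and 6.71 TPM to 15.9, 21.7 and 29.2 TPM. Klk1b27 lies inside the long RefSeq gene model of Klk1b21 (44004616 to 44106583), so these rises may not be separate measurements. How reads were divided between members of the family is not known, so the value of any single member is uncertain. Klk1, the abundant kidney kallikrein, had 2711, 1993 and 1956 TPM against 4092, 4965 and 6908 TPM in FAN1KO, without overlap, and was not called (difference 1.24, SE 0.27, adjusted p = 0.076). Markers of the thick ascending limb, distal convoluted tubule and principal cells held no called gene, with medians of −0.06, −0.49 and −0.05.

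The promoters of the 3 called kallikrein genes are given because neighbours of such likeness moved in opposite directions. They are the 250 bases before the start on the plus strand of chromosome 7 in GRCm38.p6, at chr7:44112423-44112672 for Klk1b22, chr7:44102042-44102291 for Klk1b21 and chr7:44052040-44052289 for Klk1b27, with capitals for the longest run that all 3 hold. For Klk1b21 the start is that of the RefSeq promoter table (44102292), which lies inside a longer RefSeq gene model that begins at 44004616, while GENCODE starts the gene at 44102328, so its window and offset depend on the start taken.
Klk1b22: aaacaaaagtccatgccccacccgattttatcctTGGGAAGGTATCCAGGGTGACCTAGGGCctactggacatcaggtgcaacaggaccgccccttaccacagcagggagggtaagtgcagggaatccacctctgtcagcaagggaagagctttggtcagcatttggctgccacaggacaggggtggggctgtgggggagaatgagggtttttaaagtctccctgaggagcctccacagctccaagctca
Klk1b21: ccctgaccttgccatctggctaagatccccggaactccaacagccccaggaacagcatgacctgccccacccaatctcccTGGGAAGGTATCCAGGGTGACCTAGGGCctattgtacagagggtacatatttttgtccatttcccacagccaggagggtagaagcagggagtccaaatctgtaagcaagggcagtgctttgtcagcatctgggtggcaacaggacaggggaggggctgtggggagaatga
Klk1b27: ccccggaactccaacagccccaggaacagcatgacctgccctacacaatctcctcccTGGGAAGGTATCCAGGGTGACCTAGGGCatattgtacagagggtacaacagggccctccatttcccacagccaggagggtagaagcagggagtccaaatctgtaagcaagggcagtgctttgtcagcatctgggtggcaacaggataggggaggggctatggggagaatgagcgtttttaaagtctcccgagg
The shared run of 28 bases starts 216, 170 and 193 bases before the start in Klk1b22, Klk1b21 and Klk1b27. It was taken from these 3 promoters, so their matches were fixed in advance. No other promoter held it on either strand (3 of 32851, 0.00913%). A run this long, taken from like copies, would rarely stand elsewhere, so the share is no evidence of a common control. Over aligned bases the promoter of Klk1b22 was 77.4% identical to that of Klk1b21 and 79.2% to that of Klk1b27, which were 93.0% identical to each other.

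Single genes of ribosomes and protein folding were called, most of those named here upward. Rplp0 (chr5:115559467-115563729), a protein of the ribosomal stalk, had TPM of 149, 130.2 and 136 in wild-type and 339, 472 and 423 in FAN1KO kidneys. It rose by 1.55 (SE 0.12, adjusted p = 0.000336), and 14.0% of its 100-base windows are shared with other genes. Gas5 and Snhg9, non-coding hosts of small nucleolar RNAs, rose by 1.10 (SE 0.18, adjusted p = 0.0191) and 1.50 (SE 0.23, adjusted p = 0.0135). The Gas5 call was lost whichever saline library was left out (up to 0.0809), and the adjusted p of Snhg9 reached 0.0791 with 1 library left out. Hspa8 (chr9:40801276-40805202), the constitutive HSP70 chaperone, had 339, 297 and 426 TPM against 868, 659.6 and 657 TPM in FAN1KO, and rose by 1.04 (SE 0.16, adjusted p = 0.0174, up to 0.0879 with 1 library left out).

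Ero1b, which forms disulfide bonds in the endoplasmic reticulum, and Tmed5, a cargo receptor of early secretion, rose by 1.03 (SE 0.17, adjusted p = 0.0191) and 0.87 (SE 0.12, adjusted p = 0.00869), whereas Fkbp11, a prolyl isomerase of the same compartment, fell by 1.14 (SE 0.20, adjusted p = 0.0316). With 1 library left out the adjusted p reached 0.0872 for Ero1b, 0.0572 for Tmed5 and 0.153 for Fkbp11. None of the 15 tested genes of the unfolded protein and ATF4 response was called. Their median of 0.21 was the highest of the process lists. Of the 15, 4 had an unadjusted p under 0.05 (8.38% of all genes did), and every FAN1KO value was above every wild-type value for 4 (4.62% of all genes). With the Y-linked covariate 2 of the 15 were called, and in the libraries low in Y-linked RNA 3. Hspa5, the chaperone BiP, had TPM of 309, 364 and 379 in wild-type and 493, 792 and 711 in FAN1KO kidneys (difference 0.90, SE 0.22, adjusted p = 0.125, and 0.0466 with the covariate), while Asns, an ATF4 target, pointed down (−0.90, SE 0.25, adjusted p = 0.196, and 0.021 with the covariate).

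Signalling genes called included members of 1 lipid kinase family with opposite signs. Pik3c2g fell by 1.79 (SE 0.27, adjusted p = 0.0135) and Pik3c2a rose by 0.86 (SE 0.13, adjusted p = 0.0129), from 6.90 to 8.82 TPM to 13.6 to 16.3 TPM. With 1 library left out these adjusted p reached 0.076 and 0.0656. Camkk2, a kinase upstream of AMPK, fell by 1.18 (SE 0.15, adjusted p = 0.00484), and Mapk13, a p38 kinase, by 0.68 (SE 0.13, adjusted p = 0.0456). Slc39a14, a carrier of zinc, iron and manganese, fell by 0.71 (SE 0.13, adjusted p = 0.0412). The Mapk13 and Slc39a14 calls were lost whichever saline library was left out (adjusted p up to 0.143 and 0.178). Bbs7, of the complex that carries cargo to cilia, and Cfap126, a protein of motile cilia, rose by 0.92 (SE 0.15, adjusted p = 0.019) and 2.55 (SE 0.22, adjusted p = 0.00059). The adjusted p of Bbs7 reached 0.097 with 1 library left out. Cfap126 went from 0.847, 0.409 and 0.598 TPM to 8.35, 7.13 and 10.1 TPM.

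Several of the largest changes were in pseudogenes and uncharacterised transcripts. Rps15a-ps8, a pseudogene of a ribosomal protein (chr4:53791031-53791468), had TPM of 15.5, 6.47 and 10.9 in wild-type and was at 0 in all 3 FAN1KO libraries. A floor of 3 reads in each FAN1KO library makes it at least 67.8-fold lower. Elobl (chr11:88964658-88966931) had 3.12, 3.02 and 3.52 TPM against 0 in all 3, at least 22.5-fold lower by the same floor, which covers counting error only.

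The non-coding AA465934 fell by 2.88 (SE 0.22, adjusted p = 0.000336), from 52.9 to 63.3 TPM to 5.11 to 9.90 TPM. The uncharacterised 1810037I17Rik fell by 2.80 (SE 0.19, adjusted p = 0.000288), from 14.0 to 17.4 TPM to 0.983 to 1.93 TPM. Hddc3, a hydrolase of a nucleotide alarmone, fell by 2.31 (SE 0.30, adjusted p = 0.00585), Gm7429 by 2.94 (SE 0.52, adjusted p = 0.0313, up to 0.127 and lost whichever saline library was left out), and Atp10d, annotated as a transcribed pseudogene of a lipid flippase, by 1.74 (SE 0.17, adjusted p = 0.00153). Among the rises, Trim12a reached 2.69 (SE 0.31, adjusted p = 0.00308), Smim6 2.53 (SE 0.30, adjusted p = 0.00354), 3110045C21Rik 2.22 (SE 0.31, adjusted p = 0.00786) and Alms1-ps2, a pseudogene, 2.18 (SE 0.29, adjusted p = 0.00729).

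Identifiers that the reference does not name were also among the 12 largest changes each way. The gene with NCBI number 100503231 had 132, 128 and 144 TPM against 1.74, 1.66 and 0.904 TPM in FAN1KO (fall 5.82, SE 1.05, adjusted p = 0.0331). By the same test 100504598 fell by 2.46 (SE 0.34, adjusted p = 0.00786) and 100504526 rose by 3.47 (SE 0.42, adjusted p = 0.00354, and 0.161 by voom). The call of 100503231 was lost whichever library was left out (adjusted p up to 0.127), whereas the 6 saline libraries alone gave an adjusted p of 0.000223. By annotation, 13 of 522 tested long non-coding genes were called (2.49%), 4 of 357 pseudogenes (1.12%) and 91 of 13321 protein-coding genes (0.683%). Of the 98 called genes with annotated transcripts, 16 (16.3%) shared over 10% of their 100-base windows with another gene, against 6.75% of all tested genes.

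Most processes held no called gene in this fit. Of 33 process lists, 28 had no called member. Their 505 tested genes held 5 called ones (0.990%, against 0.768% of all genes): Acadm, Sqle, Mccc1, Mcm6 and Ugt2b38. List medians ran from −0.34, for 7 genes of the renin-angiotensin system, which were all below 0, to the 0.21 of the unfolded protein response.

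Genes of tubule injury were among the quiet lists. None of its 14 tested genes was called, and the median was −0.01. Havcr1, the injury marker KIM-1, had TPM of 60.5, 50.3 and 20.4 in wild-type and 7.61, 27.8 and 0.972 in FAN1KO kidneys (difference −2.37, SE 0.86, adjusted p = 0.411) and the groups overlapped. Spp1, osteopontin, ranged from 288 to 1511 TPM in wild-type mice and from 372 to 1838 TPM in FAN1KO mice (difference 0.11, SE 0.83, adjusted p = 1), and its sign turned when wild-type replicate 3 was left out (−0.69). Slc34a1, the phosphate carrier of the proximal tubule, differed by 0.27 (SE 0.23, adjusted p = 0.969). The 16 lists of cell markers held no called gene either. Podocyte markers were above 0 in 5 of 5 and endothelial markers in 7 of 7 genes, with medians of 0.67 and 0.26, and their summed TPM overlapped between the groups (exact permutation p = 0.3 and 0.5). Neutrophil markers, all low, summed to 6.63, 7.66 and 8.68 TPM in wild-type and 2.42, 6.52 and 0.204 TPM in FAN1KO kidneys (exact permutation p = 0.1, the smallest possible). Of these 5 markers 2 passed the filter, both below 0 at an unadjusted p under 0.05 in limma.

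**Figure D3:**
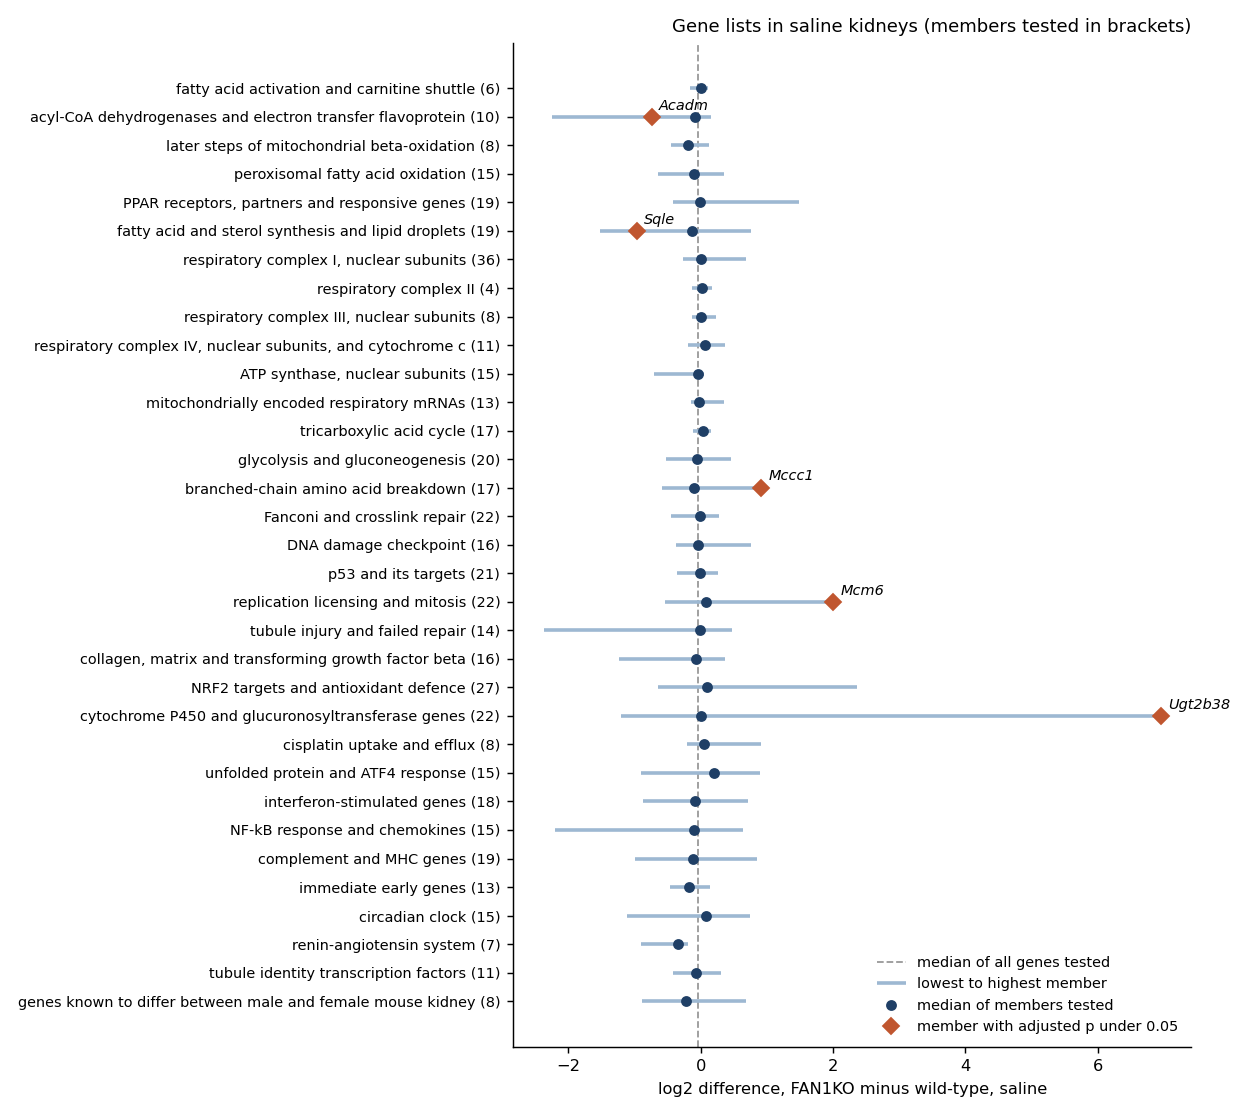
Differences between FAN1KO and wild-type saline kidneys on the log2(TPM + 1) scale for the 33 process lists, with a dot at each list's median, a line from its lowest to its highest member, diamonds for the called members and a dashed line at the median of all tested genes (−0.037). The medians lie between −0.34 and 0.21, and the 5 diamonds fall in 5 different lists.

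Called genes were often neighbours on the chromosomes. Of the 109 called genes with a position, 40 (36.7%) had another called gene within 1 Mb, against 13.7% of all tested genes, and these 40 formed 17 groups. Of 13 pairs, 10 moved in 1 direction and 3 in opposite directions, Cyb5r3 with Bik among them, and all 4 larger groups were mixed. Histone genes, with Gpx6 beside some of them, and kallikrein genes made up 3 of these, and Ostf1 with Nmrk1, Trub2 with Coq4, Ngrn with Hddc3, Pik3c2a with Nucb2, Mccc1 with Bbs7 and Cfap126 with Apoa2 were among the pairs that moved the same way. Ostf1, an adaptor protein, and Trub2 and Ngrn, which act in mitochondrial RNA handling, fell by 0.82 (SE 0.14), 0.83 (SE 0.13) and 0.73 (SE 0.11), and Nucb2, a calcium-binding precursor of nesfatin, rose by 1.23 (SE 0.23). In the limma test their adjusted p were 0.0293, 0.0144, 0.012 and 0.0389. With 1 saline library left out these reached 0.138, 0.0825, 0.0755 and 0.132, and the Nucb2 call was lost whichever library it was. Chromosome 13 had the highest share of called genes (13 of 567, 2.29%), and chromosomes 10 and 16 had none.

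Within 10 Mb of Fan1, 49 genes were tested, 8 had an unadjusted p under 0.05 (16.3%, against 8.38% of all genes) and 1 was called (2.04%, against 0.768%), Lrrc28 (chr7:67513410-67645336), which rose by 0.98 (SE 0.19, adjusted p = 0.0496, up to 0.215 with 1 library left out), from 4.29, 4.20 and 6.27 TPM to 14.1, 9.30 and 8.96 TPM. Within 10 Mb of Ggt1, whose promoter drives the Cre, 221 genes were tested and none was called by limma, while 9 had an unadjusted p under 0.05 (4.07%).

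The same genotypes after cisplatin gave a further view of these genes in 6 other mice. The contrasts share no library, but they come from the same fit and use the same spread for each gene. A gene with a small spread is favoured in both, so a call under both treatments is not independent. Under cisplatin 654 genes (4.37%) were called lower and 2931 (19.6%) higher in FAN1KO. Of the 64 genes lower under saline, 51 were also below 0 under cisplatin, where 27.4% of all tested genes were. Of the 64, 30 were called lower again and 3 were called higher. Of the 51 genes higher under saline, 49 were above 0 under cisplatin, where 72.6% of all tested genes were. Of the 51, 41 were called higher again and 0 were called lower. The median difference of the lower genes went from −1.14 to −0.57, and that of the higher genes from 1.38 to 1.36. In all, 26 of the 115 had a genotype by treatment interaction with an adjusted p under 0.05, 20 of the lower and 6 of the higher genes, against 6.24% of all tested genes. The interaction contains the saline difference by which the 115 were picked. A shift toward 0 and a larger share of such terms can therefore follow from the picking alone.

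**Figure D4:**
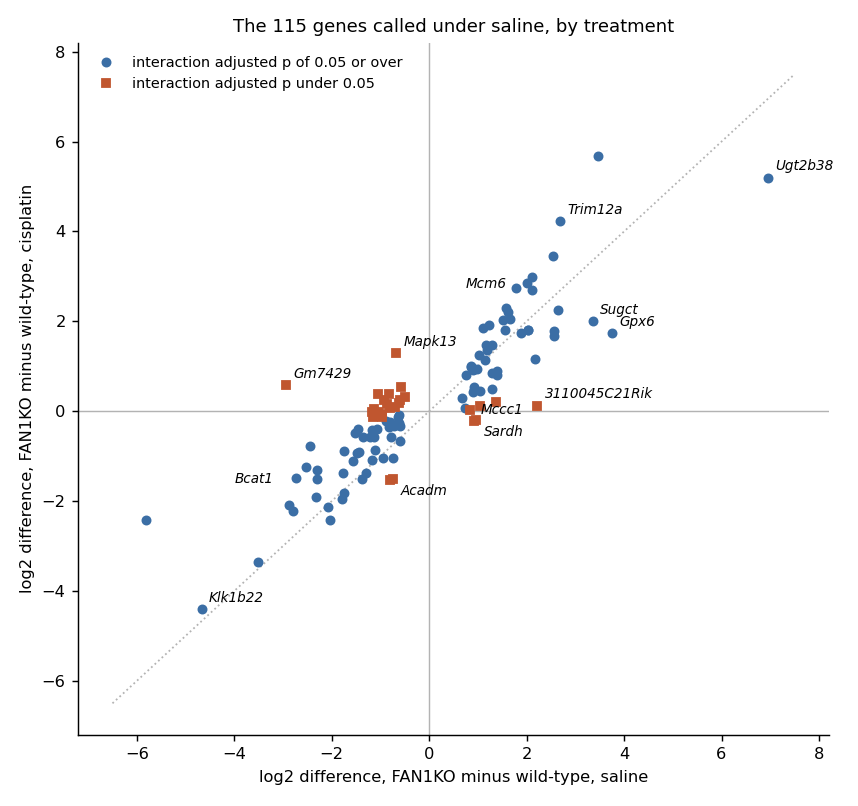
Difference between FAN1KO and wild-type kidneys on the log2(TPM + 1) scale under saline (x) and under cisplatin (y) for the 115 genes called under saline, with squares for the 26 genes whose interaction has an adjusted p under 0.05 and a dotted line where both are equal. Of these genes 51 of 64 lower and 49 of 51 higher ones keep their sign under cisplatin.

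Genes called in the same direction under both treatments included Klk1b22 (−4.67 under saline and −4.40, SE 0.49, under cisplatin), Rps15a-ps8 (−3.50 and −3.35, SE 0.29), Agmat (−1.30 and −1.38, SE 0.17), Rplp0 (1.55 and 1.80, SE 0.12) and Mcm6 (2.01 and 2.86, SE 0.25). All 5 were called under cisplatin, with adjusted p in limma of 0.000446, 0.00011, 0.000837, 4.26e-05 and 0.000136. Their interaction terms were not called (adjusted p 0.171 to 0.875), which does not show that the differences are equal. For Mcm6 the cisplatin call was shared with most of its list. Of the 22 tested replication licensing and mitosis genes, 20 were called higher under cisplatin (19.6% of all tested genes were), with a median of 1.07.

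Acadm is the called gene of fatty acid oxidation whose difference grew. It fell by 0.74 under saline and by 1.51 (SE 0.13, adjusted p = 8.84e-05) under cisplatin, and the change of −0.78 between the treatments had an adjusted p of 0.0331. Acadvl kept its size, at −2.24 and −2.06 (SE 0.54, adjusted p under cisplatin 0.0205), with an interaction of 0.18 (adjusted p = 0.91).

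Other saline differences were close to 0 after cisplatin, a shift that picking genes by their saline difference can also give. Sqle differed by −0.14 (SE 0.12, adjusted p = 0.442), Camkk2 by −0.02 (SE 0.15, adjusted p = 0.939) and Akr1c13 by −0.02 (SE 0.16, adjusted p = 0.929) under cisplatin, with interactions in limma of 0.83, 1.16 and 1.03 (adjusted p = 0.024, 0.0159 and 0.0269). Mccc1 and Sardh differed by −0.23 (SE 0.11, adjusted p = 0.144) and −0.20 (SE 0.15, adjusted p = 0.367), with interactions of −1.14 and −1.17 (adjusted p = 0.00584 and 0.016). Mapk13, whose saline call was lost whichever saline library was left out, differed by −0.68 under saline and by 1.29 (SE 0.13, adjusted p = 0.000294) under cisplatin, with an interaction of 1.96 (adjusted p = 0.00175).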

How the data were processed

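Members and gene lists were chosen with earlier results of these data known. What the authors deposited is a TPM table of 27179 genes in 12 whole-kidney libraries sequenced on an Illumina HiSeq (150-base paired reads), and samples were grouped by their labels. The submitters' processing notes name mm10 and limma, and the aligner and annotation are not given in the sources used here. RefSeq (GRCm38.p6) named 25275 genes and GENCODE 18, and 1886 stayed unnamed. Columns left out numbered 0.

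Genes reaching a TPM of 1 or more in 3 or more libraries were tested as log2(TPM + 1) by limma 3.58.1 in R 4.3.3, with 4 group means, a mean-variance trend and Benjamini-Hochberg adjustment, threshold 0.05. Single values were compared by exact permutation tests of 3 against 3 mice. TPM of a library are whole reads divided by length, so reads were recovered from the smallest steps (232991 of 232991 values whole within 0.01). These reads gave depth, the floor of 3 reads and a voom alternative, the last chosen after seeing the data, as was the fit of the 8 libraries low in Y-linked RNA. In simulated libraries 198 of 200 genes changed 2-fold were recovered (14379 tested, 16 others called). The changed genes were drawn from those with mean reads over 200, with the same spread for all genes and the same mean profile in all libraries. This checks the steps and does not give the share of 2-fold changes that these kidneys would reveal.

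Named genes were Fan1, the 12 largest called falls and 12 largest called rises, called members of the process and marker lists, called genes within 10 Mb of Fan1 or Ggt1, the genes the study measured by PCR or blot, and up to 3 abundant members of lists without a call. Others were chosen after their values were seen. Lists were described without a test. Alternatives were a pseudocount of 0.1, no filter, median-ratio scaling, the 6 saline libraries alone, a replicate block, no trend, a Y-linked covariate and each saline library left out. Promoters are from RefSeq tables, and windows shared between genes were counted over 100 bases in GENCODE transcripts. Tables and plots used pandas 2.3.3, numpy 2.4.6 and matplotlib 3.10.9 under Python 3.11.15.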

Additional observations from a re-analysis of the deposited data

Results flagged for a closer look

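These named genes had a genotype difference that differed between saline and cisplatin by the interaction term of the limma fit (adjusted p under 0.05 over all 14972 genes, where 6.24% of genes passed). Each value is the difference under cisplatin minus that under saline on the log2(TPM + 1) scale, over 3 mice in each of the 4 groups. Genes called under saline were picked by a difference that is part of this term, so a shift toward 0 can follow from that choice.

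Among genes lower in FAN1KO under saline, the difference moved upward for Gm7429 (3.53), Mapk13 (1.96), Ostf1 (1.20), Camkk2 (1.16), Akr1c13 (1.03), A2m (1.01), Cdkn2c (1.01), Cyb5r3 (0.91), Sqle (0.83) and Slc39a14 (0.80), with adjusted p from 0.00175 for Mapk13 to 0.0443 for Cyb5r3. It moved further down for Acadm (−0.78, adjusted p = 0.0331) and Pm20d1 (−0.73, adjusted p = 0.0492). A2m, a protease inhibitor of plasma, had TPM of 1.27 to 2.06 in wild-type and 0.117 to 0.161 in FAN1KO saline kidneys.

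Among genes higher under saline, it moved down for 3110045C21Rik (−2.10), Sardh (−1.17), Mccc1 (−1.14), Hspa8 (−0.92) and H2bc4 (−0.81), with adjusted p from 0.00584 for Mccc1 to 0.045 for Hspa8. All of these were nearer 0 under cisplatin, between −0.23 and 0.12.

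Genes not called under saline with such a term were Havcr1 (5.53, adjusted p = 0.03), which went from −2.37 to 3.16, Asns (1.83, adjusted p = 0.0185), from −0.90 to 0.93, Slc34a1 (−1.44, adjusted p = 0.0338), from 0.27 to −1.17, and Sdha (−0.70, adjusted p = 0.0331), from 0.04 to −0.66. All 4 were called under cisplatin (adjusted p in limma 0.0251, 0.0217, 0.00669 and 0.00352).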

How the results depend on the processing

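The called genes, 64 lower and 51 higher, numbered 248 and 173 with the Y-linked covariate, 178 and 117 in the libraries low in Y-linked RNA (52 and 43 of them shared), 36 lower and 36 higher without a filter on low values, 16 and 11 from the 6 saline libraries alone, and 19 to 41 lower and 22 to 38 higher with 1 saline library left out. A pseudocount of 0.1 (66 and 56), no trend (55 and 50), median-ratio scaling (68 and 75) and voom (53 and 40) stayed within 1.5 times. With the replicate number as a block there were 29 lower and 32 higher genes, 28 and 30 of them shared. Same-numbered mice deviated together in 1 of 3 pairs (correlations −0.61, 0.51 and −0.52), so the numbers do not pair the samples, and only the libraries numbered 2 each correlated best with their own number. Between 24 and 42 of the named genes lost their call with 1 saline library left out, most without wild-type replicate 1 (42) or 2 (41). Signs turned only for named genes that were not called. Under median-ratio scaling Cpt1a, Cpt2, Ndufa1 and Ppara gave 0.0446, 0.0329, 0.0464 and 0.00797. In the libraries low in Y-linked RNA Ndufa1 gave 0.0850 and Spp1 −0.0245. With 1 library left out Cpt1a ran from −0.157 to 0.0713, Cpt2 from −0.125 to 0.0678, Ndufa1 from −0.0788 to 0.104, Ppara from −0.220 to 0.0451, Sdha from −0.0368 to 0.137 and Spp1 from −0.686 to 0.767. Limits are the 3 mice a group, unequal Y-linked RNA within each group, adrenal markers in wild-type replicate 2, fat cell markers higher in all wild-type libraries, and whole-kidney RNA. With 41911412 reads or more in each of these libraries, genes under 1 TPM were mostly left untested.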
